A study of Mus musculus with 6 samples.

Results

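A set of 10 genes of the matrix metalloproteinase system were examined in mouse liver, namely 7 matrix metalloproteinase (MMP) genes, Mmp2, Mmp8, Mmp9, Mmp13, Mmp14, Mmp15 and Mmp19, and 3 genes of tissue inhibitors of metalloproteinases (TIMPs), Timp1, Timp2 and Timp3. These 10 genes were picked by name from the 55491 genes of the expression table, and the other 17 MMP and TIMP genes of that table are given as their background. The livers came from 3 Chrna2fl/fl;AlbCre mice (AlbCre livers a, b and c) and from 3 Chrna2fl/fl mice (fl/fl livers a, b and c), which were floxed littermates. Both genotypes carried LoxP sites in Chrna2, a nicotinic acetylcholine receptor subunit gene, placed there by CRISPR/Cas9 editing, and only AlbCre mice carried Cre, which the albumin promoter drives in hepatocytes. All mice were 7 to 10 weeks old at the start, ate a high-fat diet (HFD, 60% of its calories as fat) over 4 weeks, and received 2 intraperitoneal doses of CCl4, a hepatotoxin, in each of the last weeks, the third and the fourth (0.5 μl per g body weight). Their sex is not given in the sources used here. The comparison asks how loss of Chrna2 in hepatocytes changes the liver during this diet and injury.

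Expression was measured by poly(A) RNA-seq of whole liver and is given as FPKM, a fragment number scaled to library size and to exon length, so that levels of different genes can be set side by side. Chrna2 was at 0.36, 0.03 and 0.32 FPKM in AlbCre livers a, b and c, against 1.24, 1.20 and 2.64 FPKM in fl/fl livers, and Cre was at 2.76 to 4.34 FPKM in AlbCre livers and listed at 0 in all 3 fl/fl livers. Depth, which the size of the smallest FPKM steps gives, was 9.18 to 9.36 M fragments in AlbCre libraries and 17.2 to 17.9 M fragments in fl/fl libraries. These depths did not overlap, so a sequencing batch and the genotype cannot be told apart. Hepatocyte markers were the most abundant of all marker groups in every liver, with Alb (albumin) at 24361 to 33815 FPKM in AlbCre livers and 25514 to 46354 FPKM in fl/fl livers. Fold changes below are AlbCre over fl/fl on the log2(FPKM + 0.1) scale, which understates changes of low genes, with their standard error (SE). They were tested with limma over all 13943 genes whose mean reached 0.5 FPKM, and p-values were adjusted over all of these genes by the Benjamini-Hochberg method. The median of all tested genes lay at a log2 fold change of 0.19, and at -0.0062 after median-ratio scaling of the libraries, so values relative to 0.19 are also given.

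MMPs are zinc-dependent endopeptidases that are made as inactive proenzymes and cleave collagens, gelatin, laminin, fibronectin and other matrix and cell surface proteins. TIMPs bind the active site of MMPs and block it, and the balance of both is held to set how fast scar matrix is laid down or removed in injured liver. In the liver, hepatic stellate cells and the myofibroblasts that arise from them, macrophages, neutrophils and endothelial cells are the main known sources of these proteins, and TIMP1 is one of the best known markers of active liver fibrosis.

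Some genes of this system carry the letters of a binding site for AP-1, the dimers of FOS and JUN proteins, close to their start. The sequences that follow show where these letters stand in Mmp13 and in Mmp3 and Mmp12 of the other family genes. The promoter of Timp1 is shown beside them. Promoter sequences, from 250 bases before to 50 bases after each gene start, were taken from RefSeq (build GRCm38.p6) and were matched for 7 of the 10 genes, with none for Mmp2, Mmp9 and Mmp19, and for 15 of the 17 other family genes. The AP-1 motif TGAGTCA, searched on both strands (TGACTCA on the other strand), was in the promoter of 1 of the 7 genes, Mmp13, and of 6 of the 15 other family genes, Mmp1a, Mmp1b, Mmp3, Mmp7, Mmp10 and Mmp12. Mmp7 and Mmp12 have 2 promoters each in the table, of which 1 holds the motif. It was in 5.2% of all 32851 promoters of the same length, and all 7 of these genes lie on chromosome 9. The first base of the motif stood at position -35 in Mmp13, -46 in Mmp3 and -44 in Mmp12, counted from the gene start. Capitals mark the AP-1 letters and, where the stretch shown holds them, the TATA box letters TATAAA, which were on either strand in 13.6% of all promoters.
Mmp13, chr9:7272459-7272513, plus strand: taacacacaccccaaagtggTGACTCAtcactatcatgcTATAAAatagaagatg
Mmp3, chr9:7445756-7445821, plus strand: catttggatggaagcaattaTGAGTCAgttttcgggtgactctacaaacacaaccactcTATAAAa
Mmp12, chr9:7347310-7347373, plus strand: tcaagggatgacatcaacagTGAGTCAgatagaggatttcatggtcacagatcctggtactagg
The promoter of Timp1 held neither TGAGTCA nor TATAAA. It held TGAGTAA, which differs from the AP-1 motif in 1 base and was searched after the sequence had been seen, at position 27 after the start. TGAGTAA, on both strands, was in 2.68% of all promoters. It stands in capitals in the stretch that begins 17 bases from the start, and the 250 bases before the start of Timp1 are shown first because Timp1 had the largest difference between genotypes.
Timp1, chrX:20869916-20870165, plus strand: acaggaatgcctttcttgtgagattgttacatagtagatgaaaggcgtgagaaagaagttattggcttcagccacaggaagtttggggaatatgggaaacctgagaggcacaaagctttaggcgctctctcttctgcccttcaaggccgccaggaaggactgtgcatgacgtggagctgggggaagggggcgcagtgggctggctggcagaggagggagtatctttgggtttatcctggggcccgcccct
Timp1, chrX:20870182-20870205, plus strand: ggtgggtggaTGAGTAAtgcgtcc
A match of letters is a description of these windows and does not show binding.

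The qPCR panel of the study includes Timp1, Mmp2 and Mmp13, and its primers show which part of each transcript was read there. In GENCODE M21 on GRCm38, both Timp1 primers matched 2 of 2 transcripts and bounded 107 nt over exons 3 to 4 (chrX:20872796-20873095). The Mmp2 primers matched 1 of 4 transcripts and bounded 75 nt over exons 4 to 5 (chr8:92832886-92833136). The Mmp13 primers matched the only transcript and bounded 282 nt over exons 4 to 6 (chr9:7274247-7277942). FPKM is summed over all transcripts of a gene, so for Mmp2 it covers transcripts that the qPCR does not read.
Timp1 forward primer: gggttccccagaaatcaacga
Timp1 reverse primer: accggatatctgcggcattt
Mmp2 forward primer: ggacaagtggtccgcgtaaa
Mmp2 reverse primer: ccgaccgttgaacaggaagg
Mmp13 forward primer: cttctggcacacgcttttc
Mmp13 reverse primer: atgcttagggttggggtctt

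Timp1 had the largest fold change of the set, but no gene passed the test. Of the 10 genes, 9 were tested, and with limma's adjusted p-values under 0.05 none of them was called, with 0 higher and 0 lower, beside 0% and 0% of all 13943 genes, while 2263 genes had an unadjusted p under 0.05. Other settings that kept all 6 livers called 0 or 1 genes higher and 0 to 6 lower among all genes, and leaving out 1 liver called 0 to 34 higher and 0 to 6 lower, with 34 higher without fl/fl liver b. At an unadjusted p under 0.05, 2 of the 9, Timp1 and Timp3, were higher in AlbCre livers, beside 13.2% of all tested genes, and 0 were lower, beside 3.02%. After median-ratio scaling, Timp1 alone was higher at that p, beside 6.1% of all tested genes. All 9 had a log2 fold change above 0, with a median of 0.64, or 0.45 relative to all tested genes. The median of all tested genes was itself above 0 (0.19), and relative to it Mmp19 lay at -0.16 and Mmp15 at 0.03. All 3 AlbCre livers lay above all 3 fl/fl livers for 1 of the 9, Timp1, beside 18.7% of all tested genes, and below for 0, beside 4.34%. With 9 genes, nothing particular to them is read from these counts. Mmp8, with a mean of 0.498 FPKM, fell just under the filter and was not tested.

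**Figure D1:**
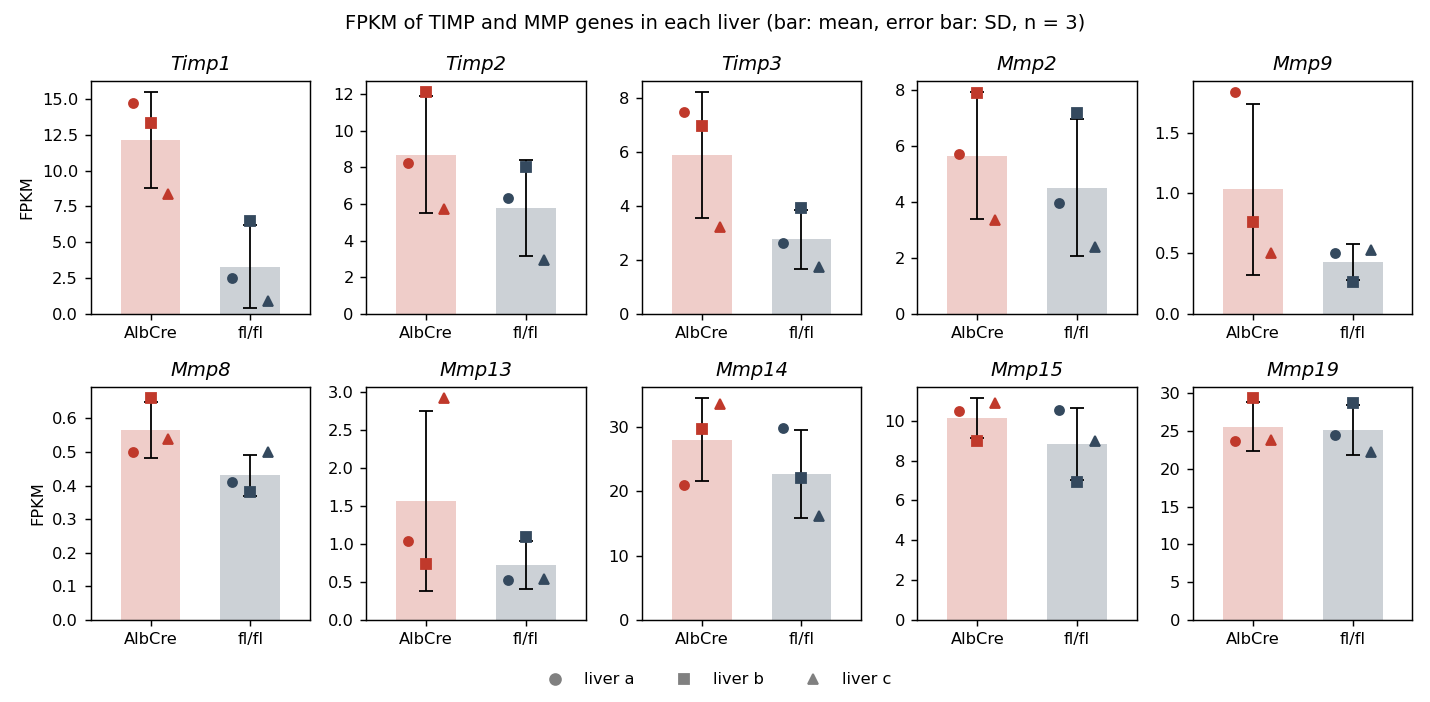
FPKM of the 3 TIMP and 7 MMP genes, with AlbCre livers left of fl/fl livers, 1 point per liver (circle, a; square, b; triangle, c), bars at the mean and error bars of 1 SD (n = 3). Every AlbCre point lies above every fl/fl point for Timp1, with 8.36 FPKM in the lowest AlbCre liver and 6.49 FPKM in the highest fl/fl liver.

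Timp1 (ENSMUSG00000001131, chrX:20870166-20874735) encodes the secreted inhibitor that stellate cells and myofibroblasts are known to release in fibrotic liver. It was at 14.74, 13.35 and 8.36 FPKM in AlbCre livers a, b and c, against 2.5, 6.49 and 0.87 FPKM in fl/fl livers a, b and c. Every AlbCre liver was above every fl/fl liver, and fl/fl liver b stood well above the other fl/fl livers. The means were 12.2 ± 3.36 FPKM in AlbCre livers and 3.29 ± 2.89 FPKM in fl/fl livers (SD, n = 3 each), a ratio of 3.70. The log2 fold change was 2.22 (SE 0.64), or 2.04 relative to all tested genes, with an unadjusted p of 0.00948 and an adjusted p of 0.255 from limma. An exact two-sided permutation test of FPKM gave p = 0.1, the smallest that 3 livers against 3 allow. The value rested on few fragments, about 48 to 82 in AlbCre livers and 9 to 67 in fl/fl livers if all came from the longest transcript of 883 nt. Leaving out 1 liver gave log2 fold changes of 1.52 (without fl/fl liver c) to 2.91 (without fl/fl liver b), with adjusted p-values from limma of 0.0603 to 0.516. Timp1 lies within Syn1, a neuronal gene on the opposite strand, which was at no more than 0.36 FPKM in any liver.

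Timp3 (ENSMUSG00000020044, chr10:86300372-86349506), whose product stays bound to the matrix and also blocks ADAM17, was at 7.48, 6.95 and 3.21 FPKM in AlbCre livers, against 2.61, 3.92 and 1.74 FPKM in fl/fl livers. AlbCre livers a and b were above all fl/fl livers, whereas AlbCre liver c was below fl/fl liver b, so the genotypes overlapped. The means were 5.88 ± 2.33 FPKM in AlbCre livers and 2.76 ± 1.10 FPKM in fl/fl livers (SD, n = 3 each), a ratio of 2.13. The log2 fold change was 1.05 (SE 0.40), or 0.86 relative to all tested genes, with an unadjusted p of 0.0342 and an adjusted p of 0.287 from limma (exact permutation p = 0.2). The unadjusted p exceeded 0.05 after median-ratio scaling (0.0565), after quantile normalization (0.0697) and without AlbCre liver a (0.118), AlbCre liver b (0.113), fl/fl liver a (0.0815) or fl/fl liver c (0.118). Timp3 lies within Syn3 on the opposite strand, which was at no more than 0.47 FPKM.

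Timp2 (ENSMUSG00000017466, chr11:118301069-118355740, minus strand) encodes the inhibitor that, together with MMP14, is also needed on the cell surface to activate pro-MMP2. It was at 8.24, 12.12 and 5.75 FPKM in AlbCre livers, against 6.34, 8.05 and 2.93 FPKM in fl/fl livers. Liver b was the highest and liver c the lowest in both genotypes, and AlbCre liver c lay below fl/fl livers a and b. A log2 fold change of 0.64 (SE 0.41) had an unadjusted p of 0.167 and an adjusted p of 0.451 from limma (exact permutation p = 0.4), and it was 0.22 without fl/fl liver c and 0.93 without fl/fl liver b.

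**Figure D2:**
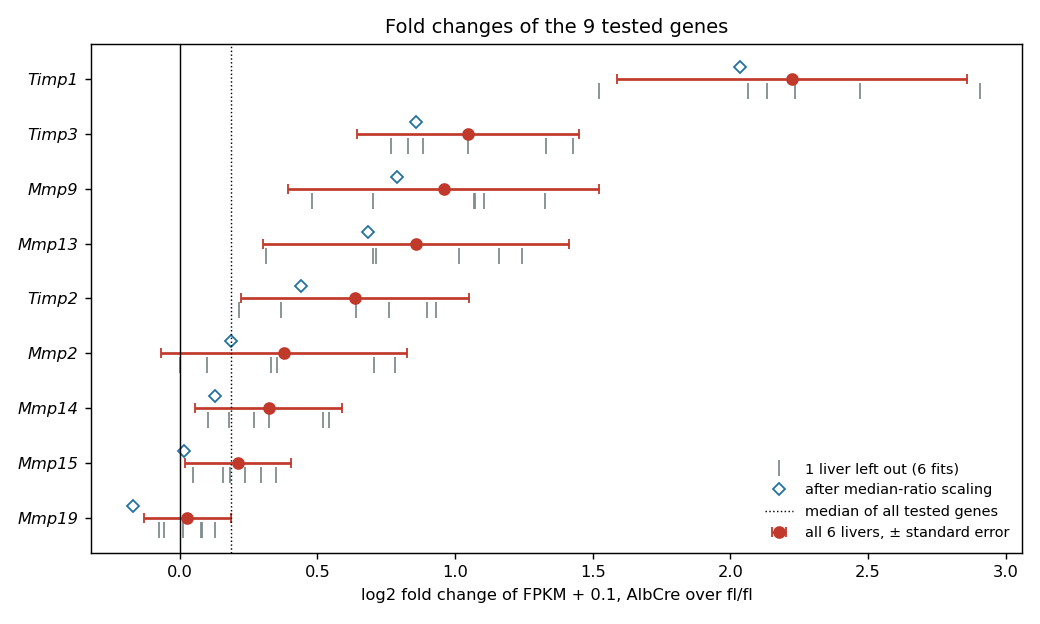
Log2 fold change of FPKM + 0.1, AlbCre over fl/fl, for the 9 tested genes in order of size, with bars of 1 SE, the value with each liver left out (ticks), the value after median-ratio scaling (diamonds) and the median of all tested genes (dotted, 0.19). Timp1 stands apart at 2.22, and Mmp19 lies at 0.03 and moves below 0 after scaling.

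The gelatinase genes did not differ beyond the spread between livers. Mmp2 (ENSMUSG00000031740, chr8:92827291-92853420) encodes gelatinase A, which stellate cells secrete and which cleaves gelatin and type IV collagen. It was at 5.72, 7.91 and 3.36 FPKM in AlbCre livers, against 3.95, 7.20 and 2.38 FPKM in fl/fl livers. Liver b was again the highest and liver c the lowest in both genotypes, and the ranges overlapped almost fully. For Mmp2, the log2 fold change was 0.38 (SE 0.45; adjusted p = 0.665 from limma, exact permutation p = 0.6), and it was 0.0016 without fl/fl liver c and 0.78 without fl/fl liver b. Mmp9 (ENSMUSG00000017737, chr2:164940780-164955850) encodes gelatinase B, known from neutrophils, macrophages and Kupffer cells. It was at 1.84, 0.76 and 0.50 FPKM in AlbCre livers, against 0.50, 0.26 and 0.53 FPKM in fl/fl livers. AlbCre liver a alone stood out, and the other AlbCre livers reached from the level of the fl/fl livers to just above it. The log2 fold change of Mmp9 was 0.96 (SE 0.56; adjusted p = 0.411 from limma) and 0.48 without AlbCre liver a, and the values rest on about 14 to 49 fragments in AlbCre livers and 13 to 27 in fl/fl livers over the longest transcript.

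The collagenase genes Mmp13 and Mmp8 were at low levels in both genotypes. Mmp13 (ENSMUSG00000050578, chr9:7272514-7283331) encodes collagenase 3, the main interstitial collagenase of rodents, which macrophages and stellate cells of injured liver are known to make. It was at 1.04, 0.73 and 2.92 FPKM in AlbCre livers, against 0.53, 1.09 and 0.54 FPKM in fl/fl livers. AlbCre liver c, with about 66 fragments, was the highest of all, and the other AlbCre livers lay within the range of the fl/fl livers, whose counts were about 23 to 45. The log2 fold change was 0.86 (SE 0.56; adjusted p = 0.448 from limma) and 0.31 without AlbCre liver c. Mmp8 (ENSMUSG00000005800, chr9:7558456-7568485), the neutrophil collagenase gene, was at 0.50, 0.66 and 0.54 FPKM in AlbCre livers, against 0.41, 0.38 and 0.50 FPKM in fl/fl livers. The lowest AlbCre liver and the highest fl/fl liver were level at 0.50 FPKM, on about 10 to 13 fragments per AlbCre liver and 14 to 19 per fl/fl liver. With no filter on low genes, its log2 fold change was 0.33 (adjusted p = 0.688 from limma).

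The membrane-type proteinase genes and Mmp19 were the highest of the 7 MMP genes, and each overlapped between genotypes. Mmp14 (ENSMUSG00000000957, chr14:54431612-54445364) encodes MT1-MMP, a collagenase anchored in the cell membrane that activates pro-MMP2. It was at 20.93, 29.67 and 33.55 FPKM in AlbCre livers, against 29.84, 22.04 and 16.12 FPKM in fl/fl livers. The livers did not keep the order seen for Mmp2 and Timp2, since liver c was the highest of the AlbCre livers and the lowest of the fl/fl livers. Its log2 fold change was 0.32 (SE 0.27; adjusted p = 0.541 from limma, exact permutation p = 0.5), and 0.10 without fl/fl liver c to 0.54 without fl/fl liver a. Mmp15 (ENSMUSG00000031790, chr8:95352268-95375080), which encodes the membrane-bound MT2-MMP, was at 10.48, 8.99 and 10.90 FPKM in AlbCre livers, against 10.56, 6.92 and 9.0 FPKM in fl/fl livers, a log2 fold change of 0.21 (SE 0.19; adjusted p = 0.573 from limma) that was 0.049 without fl/fl liver b and 0.35 without fl/fl liver a. Mmp19 (ENSMUSG00000025355, chr10:128790910-128800824), a secreted proteinase gene, was at 23.63, 29.35 and 23.82 FPKM in AlbCre livers, against 24.44, 28.73 and 22.19 FPKM in fl/fl livers. Its livers interleaved completely, and its means of 25.6 ± 3.25 FPKM in AlbCre livers and 25.1 ± 3.32 FPKM in fl/fl livers (SD, n = 3 each) had a ratio of 1.02. Its log2 fold change of 0.03 (SE 0.16; adjusted p = 0.938 from limma) turned to -0.17 after median-ratio scaling and -0.11 after quantile normalization, so Mmp19 has no stable direction. Mmp19 shares its locus with Tmem198b on the opposite strand, at 1.29 to 2.75 FPKM in AlbCre livers and 2.41 to 3.37 FPKM in fl/fl livers, and whether reads were counted by strand is not given in the sources used here.

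By mean level over the 6 livers, the order was Mmp19 (25.4 FPKM), Mmp14 (25.4 FPKM), Mmp15 (9.48 FPKM), Timp1 (7.72 FPKM), Timp2 (7.24 FPKM), Mmp2 (5.09 FPKM), Timp3 (4.32 FPKM), Mmp13 (1.14 FPKM), Mmp9 (0.732 FPKM) and Mmp8 (0.498 FPKM). Only 3 steps of this order held in all 6 livers, namely Mmp14 over Mmp15, Timp2 over Mmp2 and Timp3 over Mmp13. Mmp2 was above Timp3 in 5 of 6 livers. The other neighbours could not be told apart, with Mmp19 above Mmp14 and Timp1 above Timp2 in 3 of 6 livers each, and Mmp15 above Timp1, Mmp13 above Mmp9 and Mmp9 above Mmp8 in 4 of 6. The place of Timp1 differed between genotypes, since Timp1 was above Timp2 in all 3 AlbCre livers and below it in all 3 fl/fl livers. Of the 9 tested genes, 6 (66.7%) had their lowest value in fl/fl liver c, as had 37.1% of all tested genes, and 3 (33.3%) had their highest in AlbCre liver b, as had 20.3% of all.

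Because several of these genes shared the same high and low livers, inhibitor and proteinase levels were also set against each other within each liver. The 3 TIMP genes summed to 30.46, 32.42 and 17.32 FPKM in AlbCre livers, against 11.45, 18.46 and 5.54 FPKM in fl/fl livers, a ratio of genotype means of 2.26. The 7 MMP genes summed to 64.14, 78.07 and 75.59 FPKM in AlbCre livers, against 70.23, 66.62 and 51.26 FPKM in fl/fl livers, a ratio of 1.16. The summed TIMP over summed MMP level was therefore 0.475, 0.415 and 0.229 in AlbCre livers, against 0.163, 0.277 and 0.108 in fl/fl livers. AlbCre liver c was below fl/fl liver b, so the genotypes overlapped, with means of 0.373 ± 0.128 in AlbCre livers and 0.183 ± 0.0862 in fl/fl livers (SD, n = 3 each). The ratio of these means, 2.04, was 1.7 without fl/fl liver c and 2.75 without fl/fl liver b. Both sums carry the weight of their most abundant genes, Mmp14 and Mmp19 among the MMP genes and Timp1 and Timp2 among the TIMP genes.

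Against Mmp2 alone, the 3 inhibitors gave different pictures among 16 single-gene ratios chosen after the values had been seen and therefore not tested. Timp1 over Mmp2 was 2.58, 1.69 and 2.49 in AlbCre livers, against 0.633, 0.901 and 0.366 in fl/fl livers, with no overlap. Timp3 over Mmp2 was 1.31, 0.879 and 0.955 in AlbCre livers, against 0.661, 0.544 and 0.731 in fl/fl livers, again with no overlap. Timp2 over Mmp2 was 1.44, 1.53 and 1.71 in AlbCre livers, against 1.61, 1.12 and 1.23 in fl/fl livers, and overlapped. Against Mmp14, each of the 3 inhibitors overlapped between genotypes.

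**Figure D3:**
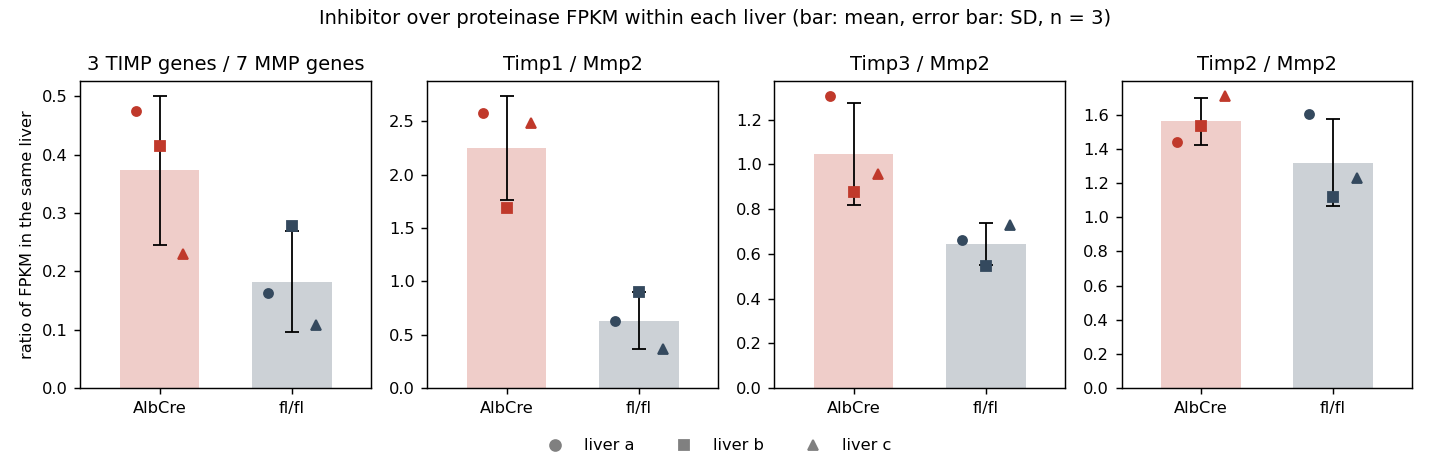
Ratio of inhibitor to proteinase FPKM within each liver for the summed genes and for Timp1, Timp3 and Timp2 over Mmp2, with AlbCre livers left of fl/fl livers, 1 point per liver, bars at the mean and error bars of 1 SD (n = 3). The ratios over Mmp2 were chosen after the values had been seen and were not tested. Timp1 over Mmp2 does not overlap, with 1.69 as the lowest AlbCre liver and 0.901 as the highest fl/fl liver, but neither does Timp1 by itself. The summed ratio and Timp2 over Mmp2 overlap.

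Of the 17 other MMP and TIMP genes, 3 passed the filter on low values. Of these, 0 were higher and 0 lower with an unadjusted p under 0.05, beside 13.2% and 3.02% of all tested genes. Mmp12, the macrophage elastase gene, was the most abundant of them, at 29.70, 29.80 and 37.70 FPKM in AlbCre livers, against 16.28, 29.96 and 4.64 FPKM in fl/fl livers. The AlbCre livers were close together, and fl/fl liver b was level with them while fl/fl liver c was far below. Its log2 fold change was 1.28 (SE 0.60; unadjusted p = 0.0679, adjusted p = 0.333 from limma). Mmp12 made up 29.9%, 26.2% and 32.3% of all MMP FPKM in AlbCre livers a, b and c, against 17.8%, 29.2% and 7.92% in fl/fl livers. Together with Mmp14, Mmp15 and Mmp19 it made up 85.3% to 90.9% of all MMP FPKM in AlbCre livers and 85.5% to 88.8% in fl/fl livers. Mmp23, a membrane-bound proteinase gene, had a log2 fold change of -0.16 (adjusted p = 0.868 from limma), and Mmp27 of 0.67 (adjusted p = 0.510 from limma), with both between 0.44 and 3.34 FPKM in every liver. The other 14 genes were under the filter, and Mmp1a, Mmp1b and Mmp20 were listed at 0 in all 6 livers.

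**Figure D4:**
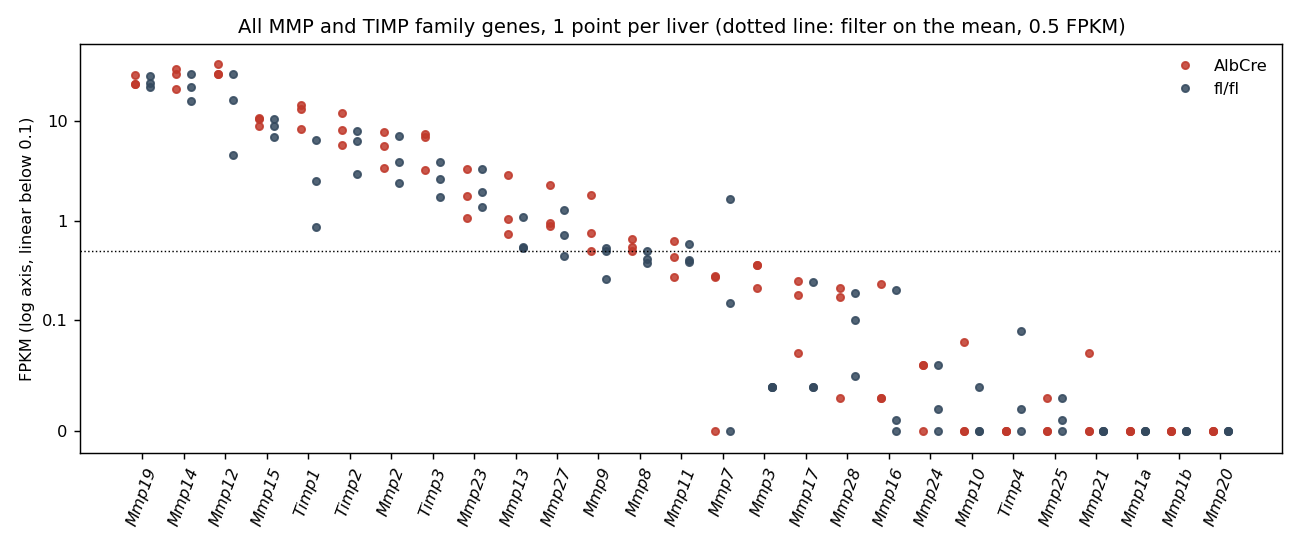
FPKM of all 27 MMP and TIMP family genes in order of their mean, 1 point per liver, with AlbCre livers left of fl/fl livers. The axis is logarithmic above 0.1 FPKM and linear below, and the dotted line marks the filter of 0.5 FPKM on the mean. Mmp19, Mmp14 and Mmp12 lead the family, and 14 of the 17 genes outside the set of 10 lie under the filter together with Mmp8.

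Genes that act on MMPs or with them were taken from lists, in which limma called 0 genes at an adjusted p under 0.05. Counts at an unadjusted p under 0.05 stand beside 13.2% higher and 3.02% lower of all tested genes. Genotypes without overlap stand beside 18.7% of all tested genes with every AlbCre liver above and 4.34% with every AlbCre liver below. With so few genes per list, nothing particular to a list is read from its counts. The list of pro-MMP activation holds proteases and the urokinase receptor gene, and 9 of its 10 genes were tested. Of these, 1 was higher and 0 lower with an unadjusted p under 0.05 from limma. The median log2 fold change was 0.09, or -0.10 relative to all genes. The higher one was Plau, the urokinase gene, at 3.36, 4.71 and 5.81 FPKM in AlbCre livers, against 1.14, 3.17 and 0.38 FPKM in fl/fl livers (log2 fold change 1.89, adjusted p = 0.271 from limma). Plg, which encodes plasminogen, was the most abundant, at 857 to 1004 FPKM in AlbCre livers and 1055 to 1177 FPKM in fl/fl livers (-0.28, adjusted p = 0.331 from limma), with every AlbCre liver below every fl/fl liver. Hpn (hepsin) and Plat (tissue plasminogen activator) had log2 fold changes of -0.17 and 1.09. Of 10 other protease inhibitors, 9 were tested, with 2 higher and 1 lower by that threshold and a median of 0.33, or 0.15 relative to all genes. The macroglobulin genes Pzp and Mug1, whose products trap proteases, went opposite ways, at 0.42 for Pzp and -0.49 for Mug1 (adjusted p = 0.288 and 0.287 from limma).

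Of the related ADAM, ADAMTS and astacin proteases, 14 of 19 were tested, with 3 higher and 1 lower with an unadjusted p under 0.05. Counts in this paragraph stand beside 13.2% higher and 3.02% lower of all tested genes, of which 18.7% had every AlbCre liver above every fl/fl liver. The median log2 fold change of these proteases was 0.71, or 0.52 relative to all genes. Adam17, the TNF sheddase gene whose product TIMP3 blocks, was at 8.01, 8.05 and 8.24 FPKM in AlbCre livers, against 4.71, 7.01 and 5.19 FPKM in fl/fl livers, with no overlap and a log2 fold change of 0.54 (adjusted p = 0.271 from limma). Adamts1, a proteoglycan-cleaving enzyme gene, was at 0.99 and Adamts7 at -0.75 (adjusted p = 0.290 and 0.272 from limma), while the abundant Bmp1, a procollagen C-proteinase gene, was at -0.15 and Adam9 at 0.27. Of 17 matrix substrates, all tested, 3 were higher and 0 lower, with a median of 0.96, or 0.77 relative to all genes. These 3 were Vcan (versican), Lamc1 (a laminin chain) and Hspg2 (perlecan), with log2 fold changes of 2.67, 1.06 and 0.73 (adjusted p = 0.255, 0.255 and 0.293 from limma). Col1a1, the fibrillar collagen that MMP13 and MMP14 cleave, was at 26.08, 31.06 and 12.55 FPKM in AlbCre livers, against 8.83, 21.99 and 3.56 FPKM in fl/fl livers. The abundant Vtn (vitronectin) and Fn1 (fibronectin), which hepatocytes secrete, were at -0.11 and 0.11. In the list of collagen uptake and lysosomal breakdown, 8 of 9 genes were tested, with 1 higher and 0 lower and a median of 0.42, or 0.23 relative to all genes. The higher one was Lgmn, the lysosomal legumain gene, at 79.6 to 135 FPKM in AlbCre livers and 31.9 to 73.8 FPKM in fl/fl livers (1.04, adjusted p = 0.257 from limma), and the cathepsin genes Ctsl, Ctsb and Ctss were at 0.30, 0.04 and 0.78 and the collagen receptor gene Mrc1 at 0.53.

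Of 25 known inducers and transcription factors of MMP and TIMP genes, 18 were tested, with 5 higher and 0 lower with an unadjusted p under 0.05. These counts stand beside 13.2% higher and 3.02% lower of all tested genes, of which 18.7% had every AlbCre liver above every fl/fl liver. The median log2 fold change of the list was 0.64, or 0.45 relative to all genes. Fos, which encodes a partner in the AP-1 dimers that bind TGAGTCA, was at 1.54, 2.06 and 2.87 FPKM in AlbCre livers, against 0.84, 0.75 and 0.56 FPKM in fl/fl livers, with no overlap and a log2 fold change of 1.44 (adjusted p = 0.255 from limma). Ets1, a transcription factor gene, was at 0.86 and Tgfb1, the fibrogenic cytokine gene, at 0.82 (adjusted p = 0.255 and 0.285 from limma). The other tested FOS and JUN genes did not share one change. Fosl1, which overlapped between genotypes, was at 2.09 (adjusted p = 0.302 from limma), Jun at 0.32, Fosl2 at 0.12 and Junb at -0.015. Jund, also a JUN gene and the most abundant transcription factor gene of the list, was at 0.20. Bsg, which encodes the MMP inducer basigin, was at 0.04.

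Marker genes of the cells that make MMPs and TIMPs are given beside these values, since in whole liver a different number of cells and a different RNA level per cell cannot be told apart. The marker counts below stand beside the same shares of all tested genes, 13.2% higher and 3.02% lower. Of 9 tested myofibroblast markers of 10, 6 were higher (unadjusted p under 0.05) and 0 lower, and the list summed to 122 to 262 FPKM in AlbCre livers and 29.4 to 167 FPKM in fl/fl livers. Acta2, smooth muscle actin, was at 30.16, 38.60 and 11.28 FPKM in AlbCre livers, against 2.11, 8.38 and 0.65 FPKM in fl/fl livers (log2 fold change 3.30, adjusted p = 0.255 from limma), so that, as for Timp1, fl/fl liver b was the highest and fl/fl liver c the lowest of the fl/fl livers. Tpm2, Myl9 and Tagln, contractile genes, were at 1.86, 1.90 and 2.53, and the collagen gene Col3a1 at 0.96. Of 10 stellate cell markers, 1 (Des, desmin, at 1.26) was higher and 0 were lower, with sums of 142 to 259 FPKM in AlbCre livers and 70.2 to 214 FPKM in fl/fl livers. All 10 had their lowest value in fl/fl liver c, as had 37.1% of all tested genes. Dcn (decorin), Ecm1 and Pdgfrb were at 0.64, 0.49 and 0.80. Of 8 sinusoidal endothelial markers, 4 were higher and 0 lower, with sums of 86.6 to 125 FPKM in AlbCre livers and 52.0 to 83.5 FPKM in fl/fl livers, and Pecam1, Oit3, Stab1, Fcgr2b and Clec4g were at 1.10, 0.81, 0.68, 0.59 and 0.59. The part of these cells in the values of Timp1, Timp3 and Mmp2 was not tested.

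Of 7 pan-macrophage markers, 3 were higher (unadjusted p under 0.05) and 0 lower, with sums of 166 to 333 FPKM in AlbCre livers and 109 to 188 FPKM in fl/fl livers. Cd68, a lysosomal protein gene of macrophages, was at 37.52, 59.42 and 36.98 FPKM in AlbCre livers, against 19.66, 39.81 and 9.14 FPKM in fl/fl livers, and its low value in fl/fl liver c stands beside that of Mmp12. Aif1, Itgam and Lyz2 were at 1.23, 1.52 and 0.35. Of 7 Kupffer cell markers, 2 were higher and 0 lower, with sums of 265 to 430 FPKM in AlbCre livers and 205 to 288 FPKM in fl/fl livers, Marco and Timd4 at 1.64 and 0.88, and Clec4f and C6 at 0.38 and -0.35. Of 8 markers of monocyte-derived macrophages, 3 were higher and 0 lower, with sums of 231 to 476 FPKM in AlbCre livers and 91.3 to 235 FPKM in fl/fl livers, and Ccr2, Ly6c2, Spp1 and Gpnmb at 1.31, 1.61, 1.22 and 0.51. Spp1 (osteopontin) was at 423 FPKM in AlbCre liver c, the liver with the highest Mmp12 and Mmp13, and made up most of the list sum there. It was at 162 and 234 FPKM in the other AlbCre livers and 73.2 to 198 FPKM in fl/fl livers. The list did not share this order, since 4 of the 8 markers, among them Ccr2, were highest in AlbCre liver b. Ly6c2 was highest in AlbCre liver c and Gpnmb in fl/fl liver b. All 7 pan-macrophage markers were highest in AlbCre liver b, as were 20.3% of all tested genes, and 37.1% of all tested genes were lowest in fl/fl liver c.

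Of 6 tested neutrophil markers of 10, 0 were higher and 0 lower by the same threshold, with sums of 18.8 to 61.0 FPKM in AlbCre livers and 16.8 to 118 FPKM in fl/fl livers. Of these 6, Camp, Retnlg and Ngp had log2 fold changes above 0 (0.46, 0.24 and 0.20), as Mmp8 had, and S100a9, S100a8 and Ltf below 0 (-0.22, -0.89 and -0.93). The mean FPKM of Camp and Ngp was nonetheless lower in AlbCre livers, with ratios of means of 0.67 and 0.56. The highest sums were those of fl/fl liver c and AlbCre liver b. Ltf, a gene of neutrophil granules like Mmp8, was at 0.09, 7.28 and 0.72 FPKM in AlbCre livers, against 0.83, 1.12 and 6.85 FPKM in fl/fl livers. Of the 6 markers, Ltf and Retnlg had their highest value in AlbCre liver b, as Mmp8 had. S100a8, S100a9, Camp and Ngp had theirs in fl/fl liver c. S100a8, a calcium-binding protein gene of neutrophils, was at 3.12, 4.77 and 2.45 FPKM in AlbCre livers, against 4.67, 3.09 and 16.65 FPKM in fl/fl livers, with its highest value in fl/fl liver c. Of 7 hepatocyte markers, 0 were higher and 0 lower, with sums of 63304 to 78242 FPKM in AlbCre livers and 58093 to 85996 FPKM in fl/fl livers, and with Ttr and Serpina1c at -0.34 and -0.30 and Ahsg at 0.39. Of 5 tested cholangiocyte markers of 6, 1 was higher, Spp1, which macrophages also express, with sums of 188 to 440 FPKM in AlbCre livers and 79.6 to 215 FPKM in fl/fl livers, while Krt19, Krt7 and Sox9 were at 0.79, 1.11 and 0.54. Of 2 tested T and NK cell markers of 7, Cd4 was lower at that threshold, at 0.37, 0.42 and 0.65 FPKM in AlbCre livers, against 1.73, 0.84 and 1.3 FPKM in fl/fl livers, and Gzma was at 0.41. Cd3e, which defines T cells, was at 0.27 to 0.91 FPKM in AlbCre livers and 0.02 to 0.72 FPKM in fl/fl livers.

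**Figure D5:**
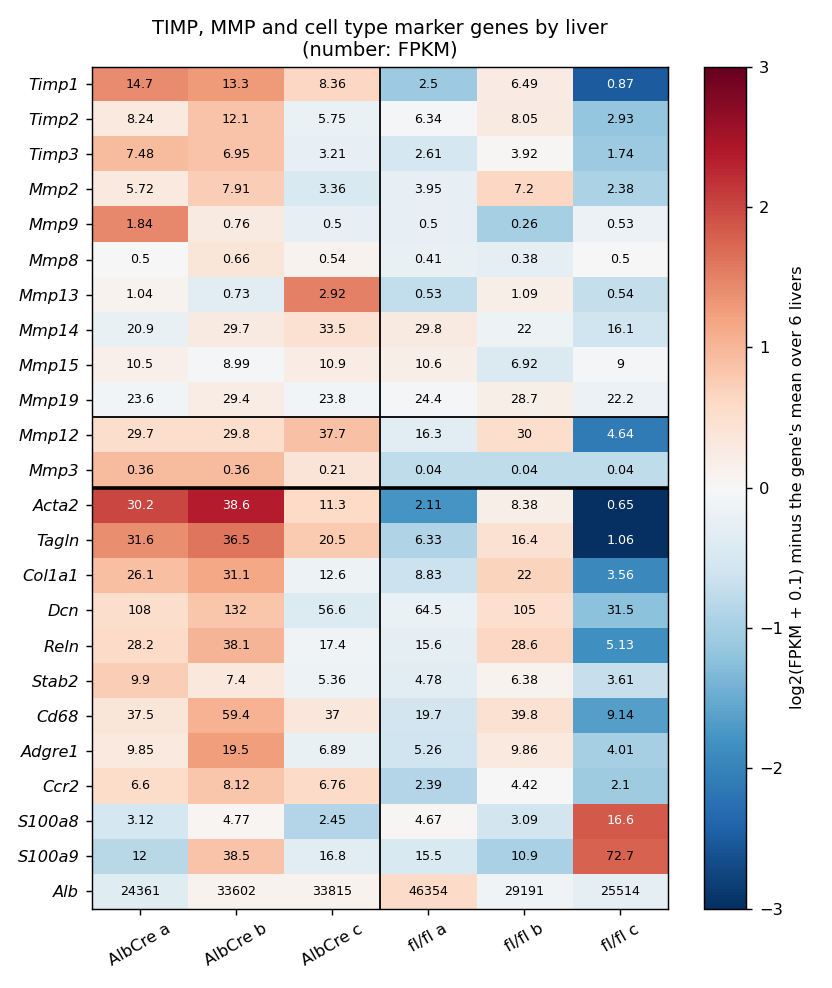
FPKM (number in each cell) of the 10 genes, Mmp12, Mmp3 and marker genes in the 6 livers, AlbCre livers left, with colour for log2(FPKM + 0.1) minus the gene's mean over the 6 livers. Timp1 (0.87 FPKM), Acta2 (0.65 FPKM) and Cd68 (9.14 FPKM) have their lowest values in fl/fl liver c, where the neutrophil genes S100a8 (16.65 FPKM) and S100a9 (72.66 FPKM) have their highest.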

How the data were processed

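Liver RNA of 3 Chrna2fl/fl;AlbCre and 3 Chrna2fl/fl mice was analysed. Per the labels and the study's methods, the authors made directional paired-end libraries of poly(A) RNA, trimmed and checked the reads (cutadapt 2.3, FastQC 0.11.8, MultiQC 1.7), mapped them to GRCm38 with STAR 2.7.8a and deposited gene FPKM from RSEM 1.3.3, rounded to 2 decimals. FPKM is relative to each library's total and sums to 807344 to 838937 here. Other scalings were run as alternatives. Genes of low value are limited by depth, and no interval was computed except for Mmp3 (exact, counting error only).

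Log2(FPKM + 0.1) was compared with limma 3.58.1 in R 4.3.3 (eBayes with a trend) over the 13943 genes whose mean reached 0.5 FPKM, with p-values adjusted by Benjamini-Hochberg (threshold 0.05), and the script was checked on simulated data. Single genes were also compared by exact two-sided permutation of FPKM. Depth was estimated from low FPKM values. Within 0.15 fragments, 86.8% to 90.7% of those used in a library came out whole. Loci came from GENCODE M21 (GRCm38), promoters from RefSeq (GRCm38.p6) and primers from the study's supplement. Approximate fragment numbers assume the longest transcript. Protein sequences were not used here. The 10 genes, the lists and the tests were chosen with earlier results of these data known. Named are the 10 genes, other family genes past the filter, from each list the 2 genes with the highest mean and up to 3 with the smallest p, and Chrna2 and Cre. The result of 1 gene that this rule names is left out. Col1a1, Retnlg, Ngp, Cd3e, Fosl1, Fosl2, Jun, Junb, Mmp7 and Mmp3 were named for comparison after their values were seen. Of the hepatocyte markers, 1 symbol (Tf) had no match. Alternatives were pseudocounts of 0.01 and 1, no filter or minimum means of 1 and 5 FPKM, a common FPKM sum, median-ratio and quantile scaling, limma with array weights or with no trend, a block for the replicate letter, and fits without each liver.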

Additional observations from a re-analysis of the deposited data

How the results depend on the processing

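Over all tested genes, the letters a, b and c showed no pairing of the livers, which does not settle pairing for single genes. The correlation of same-letter deviations from the genotype means was -0.019 for a, 0.055 for b and 0.016 for c. With the letter as a replicate block, limma called 0 genes higher and 0 lower (adjusted p under 0.05), and 3 of the 10 genes were higher at an unadjusted p under 0.05, namely Timp1 (0.00168), Timp2 (0.0187) and Timp3 (0.0042), beside 12.2% of all tested genes. Among all genes, limma's calls (higher, then lower) numbered 1 and 2 with a pseudocount of 1, 1 and 1 with no filter, 0 and 1 with a mean of at least 5 FPKM, 1 and 6 without the trend and 1 and 3 with array weights. Leaving out 1 liver gave 0 to 34 higher and 0 to 6 lower. None of the other settings called a gene. The number of the 10 genes higher at an unadjusted p under 0.05 was 1 with a mean of at least 5 FPKM, which removed Timp3 from the test (14.9% of all tested genes), 1 after median-ratio scaling (6.1%), 1 after quantile normalization (6.85%) and 1 to 2 with 1 liver left out (7.51% to 20.7%), while 0 were lower in every setting. Mmp19 turned to -0.17 after median-ratio scaling, -0.11 after quantile normalization, -0.074 without AlbCre liver b and -0.057 without fl/fl liver c, with a highest value of 0.13 when 1 liver was left out. The other 145 values of single genes under an alternative kept their direction and their side of an adjusted p of 0.05. With all 6 livers kept, the log2 fold change of Timp1 was 1.81 to 2.28 (adjusted p = 0.0754 to 0.391 from limma) and that of Timp3 0.79 to 1.14 (0.107 to 0.443). The cause of these changes was not tested. Depth limits Mmp8, Mmp9, Mmp13 and Timp1 most, each with under 100 fragments per liver.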

Other observations

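Mmp3, the stromelysin 1 gene, was under the filter and was singled out after its values had been seen. It was at 0.36, 0.36 and 0.21 FPKM in AlbCre livers a, b and c, against 0.04 FPKM in each of the 3 fl/fl livers. These values stand for about 5, 5 and 3 fragments in AlbCre livers and 1 in each fl/fl liver, over a transcript of 1801 nt. Per fragment sequenced, 13 fragments against 3 gave a ratio of 8.24, with an exact 95% interval of 2.26 to 45.1 that covers counting error only. With no filter, the log2 fold change was 1.53 (unadjusted p = 0.00248, adjusted p = 0.368 from limma). Because Mmp3 was picked for these values, neither the interval nor the p-value tests a difference. The equal fl/fl values are 1 fragment each, so they do not measure the spread between livers. Mmp3 and Mmp12, which hold TGAGTCA in the promoter of Mmp3 and in 1 of 2 promoters of Mmp12, lie near Mmp13 on chromosome 9, where Mmp1a and Mmp1b, which also hold it, were listed at 0 in all 6 livers. Mmp7, with the same motif in 1 of 2 promoters, was at 0, 0.28 and 0.27 FPKM in AlbCre livers, against 1.67, 0.15 and 0 FPKM in fl/fl livers, and overlapped.

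Among the single-gene ratios chosen after the values had been seen, those of Timp1 and Mmp2 over marker genes did not overlap between genotypes. Their direction depended on the marker for Timp1. Mmp2 was set only against Col1a1, Dcn and Acta2, and was lower in AlbCre livers over each of these. Because Mmp2 was not set against Cd68 or Alb, its direction over other kinds of marker is not given. Timp1 over Cd68 was 0.393, 0.225 and 0.226 in AlbCre livers, against 0.127, 0.163 and 0.0952 in fl/fl livers. Timp1 over Alb was also higher in AlbCre livers. Timp1 over Col1a1 was 0.565, 0.430 and 0.666 in AlbCre livers, against 0.283, 0.295 and 0.244 in fl/fl livers, with no overlap. Mmp2 over Col1a1 was 0.219, 0.255 and 0.268 in AlbCre livers, against 0.447, 0.327 and 0.669 in fl/fl livers, also with no overlap but in the other direction. Over Dcn, a stellate cell gene, Timp1 averaged 0.128 ± 0.0243 in AlbCre livers and 0.0427 ± 0.0174 in fl/fl livers (SD, n = 3 each), and Mmp2 averaged 0.0574 ± 0.00391 in AlbCre livers and 0.0684 ± 0.00715 in fl/fl livers. Over the myofibroblast gene Acta2, both were lower in AlbCre livers. Timp1 over Acta2 was 0.489, 0.346 and 0.741 in AlbCre livers, against 1.18, 0.774 and 1.34 in fl/fl livers, and Mmp2 over Acta2 was 0.190, 0.205 and 0.298 in AlbCre livers, against 1.87, 0.859 and 3.66 in fl/fl livers. Mmp12 over the macrophage gene Cd68 was 0.792, 0.502 and 1.02 in AlbCre livers, against 0.828, 0.753 and 0.508 in fl/fl livers, and overlapped.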
